A study of Mus musculus with 16 samples.

Results

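Clade B serpins were followed in mouse jejunal organoids in which the nuclear receptor gene Hnf4a could be deleted by drug treatment. The 8 genes described are Serpinb1a, Serpinb1b, Serpinb5, Serpinb6a, Serpinb6b, Serpinb6c, Serpinb9 and Serpinb9b, each found by its symbol in the deposited gene tables of day 2 and day 4. They are 8 of the 10 clade B serpins in either table, and 8 of the 19964 genes in both. The genes were selected on measured values, the differences between treatments at day 2 and day 4, so those differences are given as a description, without a test. Changes between days were not themselves used to choose them and were tested. Those tests use the same libraries as the selection, so they are not independent of it.

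All 16 libraries came from epithelial organoids of C57BL/6 background with Villin-CreERT2, a recombinase that acts in Villin-expressing cells once 4-hydroxytamoxifen (4OHT) is present, and Hnf4a flox/flox. The controls carry the same alleles. The treated groups received 0.5 µM 4OHT for 24 h and the control groups the vehicle DMSO. Each treatment was sampled at day 2 and at day 4, giving 4 groups with 4 libraries in each, and the treatment protocol describes only a collection at day 4 after passage. Library totals were 63.8 M to 93.3 M counts. The labels do not say whether replicates were separate cultures or animals, so p-values reflect only how libraries vary, which may be technical. All libraries of a time comparison share the day with any work done that day, so day and batch cannot be told apart. Hnf4a measured 1013, 1043, 1046 and 979 CPM (counts relative to library size after scaling between libraries) in the DMSO libraries of day 2 and 519, 532, 509 and 482 in the 4OHT libraries. At day 4 it measured 961, 983, 967 and 956 CPM in DMSO and 470.0, 490.3, 463 and 454 in 4OHT. The groups did not overlap on either day, and a gene count also includes reads from any exon outside the floxed part.

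Serpins are mostly serine or cysteine protease inhibitors. They expose a flexible reactive centre loop as bait, and a protease that cuts it is trapped in a covalent complex as the loop inserts into the body of the serpin. Clade B members lack a classical signal peptide and act mainly inside cells, where they protect the cell from its own or from incoming granule and lysosomal proteases. Serpinb1a is a mouse counterpart of human SERPINB1, an inhibitor of neutrophil serine proteases, and Serpinb6a of SERPINB6, an inhibitor of trypsin-like proteases and cathepsin G. Serpinb9 is the counterpart of the granzyme B inhibitor SERPINB9. Serpinb5, also called maspin, is an epithelial serpin that does not inhibit proteases.

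Since the loop decides which protease a serpin can trap, the coding stretch from the conserved loop hinge to the codon before the next conserved motif is shown for each gene, in GENCODE M21 transcripts of GRCm38. Capitals mark bases without an identical partner in a paralogue set as reference. This is Serpinb1a for Serpinb1b, Serpinb6a for Serpinb6b and Serpinb6c, and Serpinb9 for Serpinb9b. Between Serpinb6b and Serpinb6c, 89.4% of aligned coding bases were identical before the loop and 78.3% within it, not counting loop gaps of 15 bases. These shares lay above those of either gene with Serpinb6a, given below. The loop gaps were also larger, so the order within the loop depends on how gaps are counted.
Serpinb1a: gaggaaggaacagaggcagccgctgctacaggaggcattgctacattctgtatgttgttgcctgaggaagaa
Serpinb1b: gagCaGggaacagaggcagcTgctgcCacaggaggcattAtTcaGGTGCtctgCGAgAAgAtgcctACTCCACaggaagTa
Serpinb6a: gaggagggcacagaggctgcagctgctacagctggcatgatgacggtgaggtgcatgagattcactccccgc
Serpinb6b: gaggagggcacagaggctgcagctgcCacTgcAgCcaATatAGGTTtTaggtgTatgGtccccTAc
Serpinb6c: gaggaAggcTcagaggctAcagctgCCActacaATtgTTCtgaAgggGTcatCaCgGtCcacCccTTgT
Serpinb9: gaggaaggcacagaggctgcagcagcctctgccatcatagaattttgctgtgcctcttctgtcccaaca
Serpinb9b: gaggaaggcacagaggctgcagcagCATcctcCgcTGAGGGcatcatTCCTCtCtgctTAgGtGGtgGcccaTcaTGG
Serpinb5: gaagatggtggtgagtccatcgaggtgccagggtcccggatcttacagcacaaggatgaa
The hinge is at the start of each stretch, and most capitals lie in its later part. Serpinb1b had 25 bases in capitals, Serpinb6b 16, Serpinb6c 22 and Serpinb9b 26. Before the loop, 91.8% of aligned coding bases were identical between Serpinb1a and Serpinb1b, 87.4% between Serpinb6a and Serpinb6b, 88.4% between Serpinb6a and Serpinb6c, and 86.2% between Serpinb9 and Serpinb9b. Within the loop stretch the shares were 78.9%, 75.8%, 72.3% and 78.8%, not counting gaps of 11, 6, 11 and 15 bases.

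Such near copies can share reads. Of all stretches of 50 bases in its transcripts, Serpinb1a shared 2.81% with transcripts of other genes, Serpinb1b 3.09%, Serpinb6b 2.92%, Serpinb6c 9.92% and Serpinb9 0.38%. At 100 bases none of these 5 genes shared any, nor did Serpinb5 at either length. Serpinb6a shared 25.14% of stretches at 50 bases and 19.85% at 100, mostly with Nqo2, 1110046J04Rik and Ripk1, whose exons overlap its own on the opposite strand. Serpinb9b shared 5.38% and 1.91%, mostly with Gm36099, also opposite to it. The libraries are directional, but the strand setting of the counting is not given in the sources used here, so the Serpinb6a and Serpinb9b counts could include reads of these partners. Nqo2 and Ripk1 themselves did not pass the treatment test at day 2 (log2 -0.11 and 0.12, edgeR adjusted p = 0.0968 and 0.0912) or at day 4 (0.05 and 0.09, edgeR adjusted p = 0.442 and 0.254). At day 2 Ripk1 was higher in 4OHT without overlap. From day 2 to day 4 Nqo2 fell in DMSO (log2 -0.35, edgeR adjusted p = 6.06e-05) and in 4OHT (-0.19, edgeR adjusted p = 0.00658). Ripk1 did not pass between days (0.03 and -0.01, edgeR adjusted p = 0.720 and 0.919).

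Serpinb1a and Serpinb6a made up nearly all clade B serpin reads. At day 2 they held 97.5% ± 0.284 (SD, n = 4) of these reads in DMSO libraries and 96.5% ± 0.281 in 4OHT libraries. At day 4 the shares were 98.7% ± 0.148 and 97.8% ± 0.374. The clade B genes summed at day 2 to 761 ± 35.5 CPM in DMSO libraries and 989 ± 32.5 CPM in 4OHT libraries, and at day 4 to 397 ± 16.5 and 657 ± 113 CPM. Per kilobase of all annotated exons, in DMSO at day 2, the order of the levels was Serpinb1a (168 ± 7.48 CPM per kb), Serpinb6a (65.6 ± 3.69), Serpinb5 (5.17 ± 0.468), Serpinb9b (0.823 ± 0.0513), Serpinb9 (0.274 ± 0.0627), Serpinb6b (0.184 ± 0.0505), Serpinb6c (0.135 ± 0.0360) and Serpinb1b (0.0568 ± 0.00924). Neighbours in this order did not overlap, except Serpinb9 with Serpinb6b and Serpinb6b with Serpinb6c. The first positions depend on the length used. Per kilobase of the coding transcript shown, Serpinb6a (236 ± 13.3 CPM per kb) lay above Serpinb1a (202 ± 8.98), and these values did not overlap. In DMSO at day 4 the order below Serpinb5 was Serpinb9, Serpinb9b, Serpinb6b, Serpinb1b and Serpinb6c, at 0.283, 0.101, 0.0463, 0.0302 and 0.0142 CPM per kb of exons. There Serpinb9 lay above Serpinb9b without overlap, and the 4 lowest genes overlapped each with the next.

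**Figure D1:**
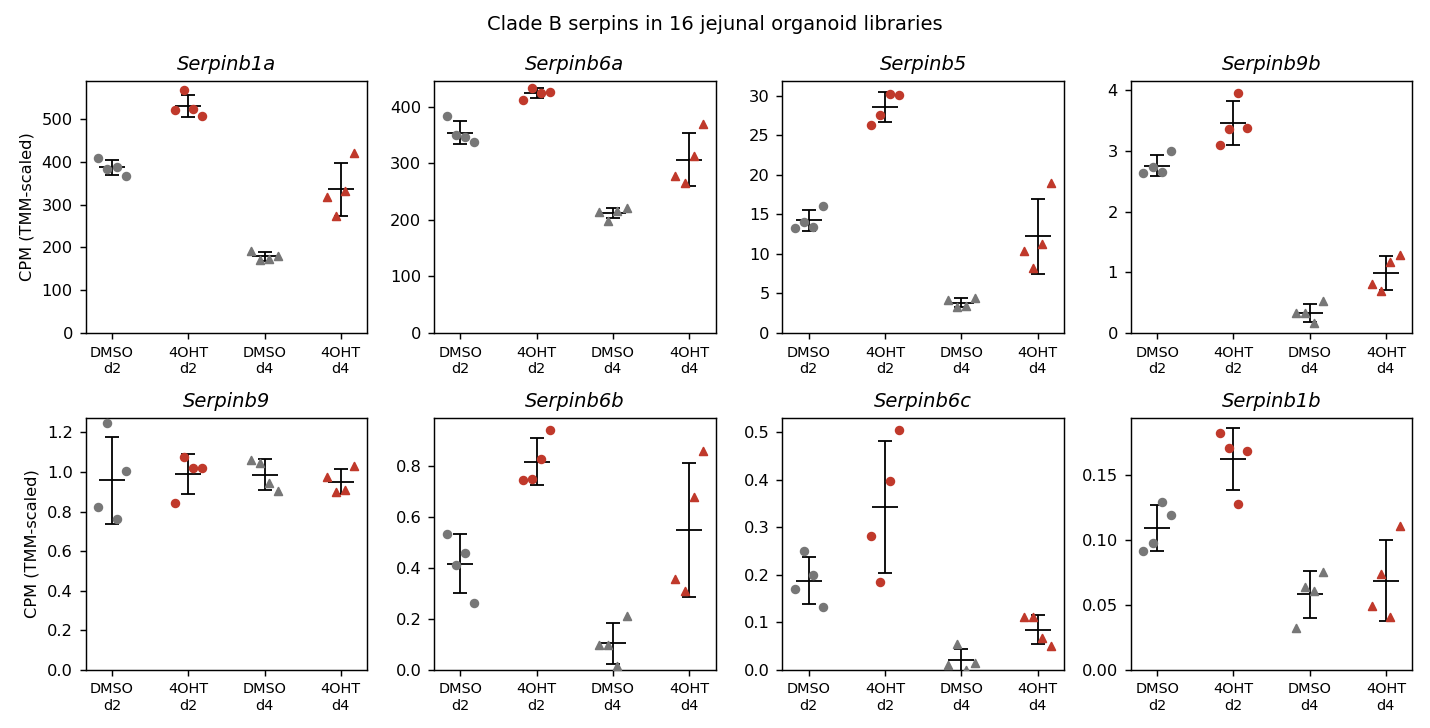
Level of each clade B serpin in all 16 libraries, in CPM on linear axes that start at 0 and differ between panels. Points are libraries (circles day 2, triangles day 4, grey DMSO, red 4OHT), and bars are the mean ± SD of 4 libraries. Serpinb9 stays between 0.762 and 1.249 CPM in all groups, while Serpinb5 spans 3.33 to 30.3 CPM.

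The comparison of 4OHT with DMSO within each day addresses what differed after 4OHT treatment. No group received 4OHT without the recombinase or without the floxed alleles. Effects of 4OHT itself, of the active recombinase and of Hnf4a loss therefore cannot be told apart. Serpinb1a, Serpinb5, Serpinb6a, Serpinb6b and Serpinb9b had their lowest 4OHT library above their highest DMSO library on both days. That is 5 of 8 genes on each day, where 17.0% of the 15897 genes tested at day 2 and 14.7% of the 16040 at day 4 were higher without overlap. These comparisons chose the genes, so nothing is read from the difference. No clade B serpin was lower without overlap. By edgeR's quasi-likelihood test with Benjamini-Hochberg adjustment, 16.9% of genes were called higher at day 2 (31.1% in either direction) and 13.7% at day 4 (24.7% in either direction), and 9.32% of 15498 genes were called higher on both days. A block for replicate number, which pairs the day 4 libraries, raised the day 4 shares to 22.8% and 45.0%. The median log2 difference over all 8 genes, fitted without a filter on low counts, was 0.51 at day 2 and 1.23 at day 4, against -0.01 and -0.00 over all genes.

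Serpinb1a (ENSMUSG00000044734, GRCm38 chromosome 13, 32842092 to 32851185, minus strand) measured 409.5, 384, 389 and 368 CPM in DMSO and 520.2, 569, 525 and 508 CPM in 4OHT at day 2. At day 4 it measured 192, 171, 173 and 179.7 CPM in DMSO and 317, 274, 332 and 419.8 CPM in 4OHT. All 4OHT libraries lay above all DMSO libraries of their day, and the 4OHT libraries of day 4 were more spread than the others. The log2 difference, 4OHT over DMSO, was 0.46 ± 0.05 (SE) at day 2 and 0.91 ± 0.11 at day 4.

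Serpinb6a (ENSMUSG00000060147, chromosome 13, 33917918 to 34002794, minus strand) was the other abundant gene, with a smaller difference. In DMSO it measured 384, 349.5, 346 and 339 CPM at day 2 and 214, 199, 217 and 220.3 CPM at day 4. In 4OHT it measured 413, 434, 425 and 426 CPM at day 2 and 277, 266, 313 and 370.1 CPM at day 4. The log2 differences were 0.27 ± 0.04 and 0.53 ± 0.09. The ratio of Serpinb1a to Serpinb6a CPM at day 2 was 1.09 ± 0.0233 (SD, n = 4) in DMSO libraries and 1.249 ± 0.0494 in 4OHT libraries. At day 4 it was 0.843 ± 0.0451 and 1.09 ± 0.0549, with no overlap between treatments on either day.

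Serpinb5 (ENSMUSG00000067006, chromosome 1, 106861173 to 106883348, plus strand), the only one of the 8 outside chromosome 13, showed the widest difference among the 3 genes above 10 CPM in DMSO at day 2. Its levels in DMSO were 13.3, 14.01, 13.5 and 16.1 CPM at day 2 and 4.13, 3.33, 3.47 and 4.49 CPM at day 4. In 4OHT they were 26.3, 27.6, 30.3 and 30.1 CPM at day 2 and 10.4, 8.23, 11.3 and 19.0 CPM at day 4. The log2 differences were 1.01 ± 0.07 and 1.67 ± 0.24, or ratios of the means of 2.01 and 3.17. At day 4 the highest value, in replicate 4, stood above the other 3, which lay within 8.23 to 11.3 CPM.

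The same library was high for most of the genes. 4OHT day 4 replicate 4 was the highest of its group for 7 of the 8 genes and the lowest for Serpinb6c, and replicate 2 was the lowest for 6. In DMSO at day 4, replicate 4 was the highest for 5. Leaving out any 1 library, or using any other setting that tested the gene, kept the day 4 difference at log2 0.79 to 1.0 for Serpinb1a. The ranges were 1.38 to 1.82 for Serpinb5, 0.43 to 0.59 for Serpinb6a, 2.08 to 2.86 for Serpinb6b and 1.35 to 1.81 for Serpinb9b. The filter of at least 1 CPM in 4 libraries left Serpinb6b and Serpinb9b untested at day 4.

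Serpinb9b and Serpinb9 are neighbouring paralogues with different profiles. Serpinb9b (ENSMUSG00000021403, chromosome 13, 33027416 to 33041884, plus strand) measured 2.63, 2.74, 2.66 and 3.01 CPM in DMSO and 3.11, 3.37, 3.97 and 3.39 CPM in 4OHT at day 2. At day 4 it measured 0.324, 0.330, 0.167 and 0.527 CPM in DMSO and 0.814, 0.700, 1.16 and 1.29 CPM in 4OHT. The groups did not overlap, with log2 differences of 0.33 ± 0.10 and 1.55 ± 0.31. Serpinb9 (ENSMUSG00000045827, chromosome 13, 33003250 to 33017957, plus strand) measured 0.821, 1.249, 0.762 and 1.003 CPM in DMSO and 0.844, 1.08, 1.02 and 1.02 CPM in 4OHT at day 2. At day 4 the values were 1.06, 1.04, 0.943 and 0.903 CPM in DMSO and 0.974, 0.897, 0.907 and 1.03 CPM in 4OHT. These groups overlapped on both days, with log2 differences of 0.05 ± 0.17 and -0.06 ± 0.13 on 60 to 115 reads per library. The log2 ratio of Serpinb9b to Serpinb9 reads at day 2 was 1.55 ± 0.29 (SD, n = 4) in DMSO libraries and 1.8 ± 0.14 in 4OHT libraries. At day 4 it was -1.66 ± 0.70 in DMSO and 0.02 ± 0.38 in 4OHT, without overlap between treatments.

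Serpinb6b (ENSMUSG00000042842, chromosome 13, 32965209 to 32979067, plus strand) was counted 41, 38, 39 and 22 times in DMSO and 53, 57, 52 and 84 times in 4OHT at day 2. At day 4 it had 9, 9, 1 and 14 reads in DMSO and 29, 25, 50 and 70 in 4OHT. All 4OHT libraries lay above all DMSO libraries of their day in CPM, with log2 differences of 0.99 ± 0.19 and 2.39 ± 0.50, the second resting on few DMSO reads. At day 4 Serpinb6b passed the filter only through its 4OHT level. In 4OHT at day 4 the levels were 0.358, 0.307, 0.677 and 0.858 CPM.

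The remaining genes were near the limit of counting. Serpinb6c (ENSMUSG00000052180, chromosome 13, 33879816 to 33905708, minus strand) had 13, 23, 17 and 11 reads in DMSO and 20, 14, 25 and 45 in 4OHT at day 2, and 1, 5, 0 and 1 reads in DMSO and 9, 9, 5 and 4 in 4OHT at day 4. Serpinb1b (ENSMUSG00000051029, chromosome 13, 33078575 to 33094380, plus strand) had 7, 9, 11 and 10 reads in DMSO and 13, 13, 8 and 15 in 4OHT at day 2, and 3, 6, 4 and 5 reads against 4, 6, 3 and 9 at day 4. In CPM the groups overlapped on both days for both genes. The day 2 log2 differences were 0.87 ± 0.32 for Serpinb6c and 0.58 ± 0.25 for Serpinb1b. At day 4 both fell below the filter on low counts, and the fit without it gave 1.89 ± 0.64 for Serpinb6c and 0.27 ± 0.46 for Serpinb1b, on few reads. Of the other clade B serpins, Serpinb11 was listed at day 2 only and Serpinb12 on both days, at mean levels of 0.0593 CPM or less in any group, and neither passed the filter.

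**Figure D2:**
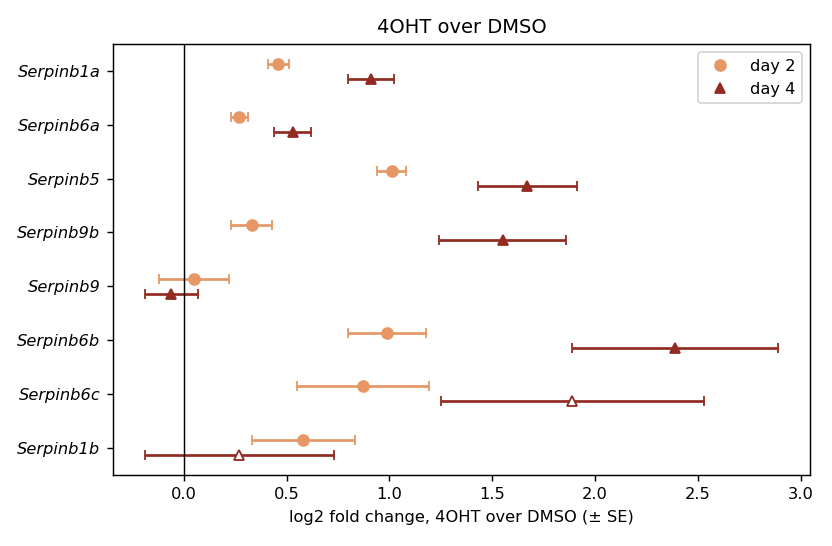
Log2 fold change of 4OHT over DMSO for each clade B serpin at day 2 (orange circles) and day 4 (dark red triangles), with bars of ± 1 SE from edgeR. Open symbols come from the fit without a filter on low counts. For Serpinb1a, Serpinb5, Serpinb6a, Serpinb6b and Serpinb9b the day 4 point lies to the right of the day 2 point, and both Serpinb9 points lie near 0.

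The comparison of day 4 with day 2 within each treatment asks how these genes moved between the days. It uses the same libraries as the treatment comparisons, which chose the genes, so its tests are not independent of that choice. In DMSO, 6 of the 7 clade B serpins tested fell, against 24.8% of all 16088 genes tested (53.5% changed in either direction). Serpinb1a fell by 1.10 ± 0.05 on the log2 scale (edgeR adjusted p = 9.85e-09), to 46.2% of its day 2 mean, and Serpinb6a fell by 0.73 ± 0.05 (edgeR adjusted p = 3.06e-07), to 59.9%. Serpinb5 fell by 1.87 ± 0.10 (edgeR adjusted p = 2.39e-08), to 27.1%. Of the rarer genes, Serpinb9b fell by 3.02 ± 0.21 (edgeR adjusted p = 1.28e-07), to 12.2%. Serpinb6b fell by 1.97 ± 0.39 (edgeR adjusted p = 0.000959), to 25.2%, and Serpinb6c fell by 3.01 ± 0.51 (edgeR adjusted p = 0.000286), to 10.6%, on 7 reads in all 4 DMSO libraries of day 4. Serpinb6b and Serpinb6c passed the filter only through their day 2 levels, so their share in the count of falls supports nothing. Serpinb9, the granzyme B inhibitor, did not pass the test (log2 0.06 ± 0.17, edgeR adjusted p = 0.794). Day 4 lay below day 2 without overlap for 7 of the 8 genes, Serpinb1b included, against 24.2% of genes.

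In 4OHT, 5 of the 7 clade B serpins tested fell, against 23.5% of all 15962 genes tested (49.4% changed in either direction). Serpinb1a fell by 0.65 ± 0.11 on the log2 scale (edgeR adjusted p = 0.000608), to 63.3% of its day 2 mean. Serpinb6a (log2 -0.46 ± 0.09, edgeR adjusted p = 0.00133), Serpinb5 (-1.22 ± 0.22, edgeR adjusted p = 0.00171), Serpinb9b (-1.79 ± 0.18, edgeR adjusted p = 2.67e-05) and Serpinb6c (-1.99 ± 0.39, edgeR adjusted p = 0.00159) also fell. Serpinb6c, with 9, 9, 5 and 4 reads at day 4, again passed the filter only through its day 2 level. These left 72.2%, 42.8%, 28.7% and 24.7% of the day 2 means. Serpinb6b did not pass (log2 -0.57 ± 0.29, edgeR adjusted p = 0.122), but passed without 4OHT day 4 replicate 4, the highest library (log2 -0.87, edgeR adjusted p = 0.0124, where the alternatives ranged from 0.0124 to 0.266). Serpinb9 did not pass (log2 -0.05 ± 0.13, edgeR adjusted p = 0.779). Day 4 lay below day 2 without overlap for 6 of the 8 genes, against 23.1% of genes.

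With no filter on low counts, so that all 8 genes were tested, 6 fell in DMSO and 6 in 4OHT, against 22.0% and 18.6% of 19964 genes. In these genes 20.6% lay lower without overlap in DMSO and 19.3% in 4OHT, beside 7 and 6 of the 8 serpins. Serpinb1b was the gene added in 4OHT (log2 -1.21 ± 0.35, edgeR adjusted p = 0.0153), and in DMSO it did not pass (log2 -0.94 ± 0.38, edgeR adjusted p = 0.0560). The median log2 change over the 8 genes was -1.51 in DMSO and -0.93 in 4OHT, against 0.00 and 0.02 over all genes. Whether the change between days differed between treatments was not tested, since it is the same contrast as the difference between the treatment effects on which the genes were chosen.

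**Figure D3:**
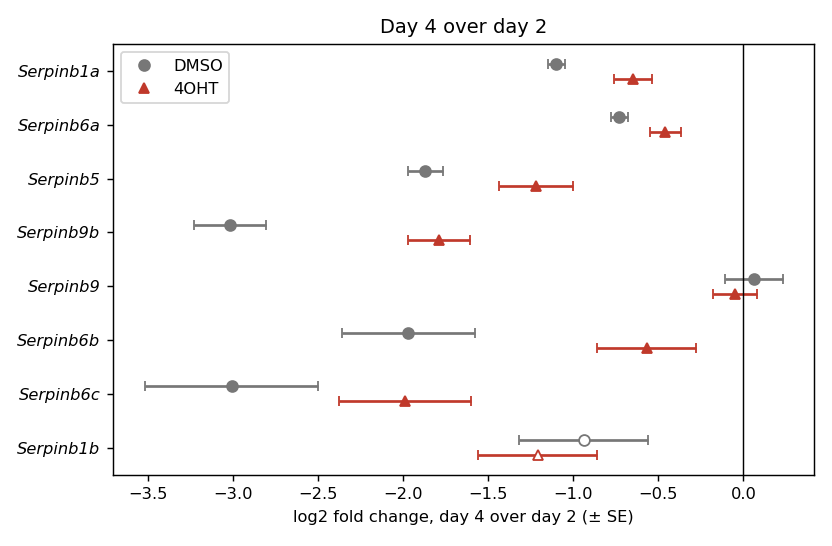
Log2 fold change of day 4 over day 2 for each clade B serpin in DMSO (grey circles) and 4OHT (red triangles), with bars of ± 1 SE from edgeR. Open symbols come from the fit without a filter on low counts. All points except those of Serpinb9 lie left of 0, from -3.02 for Serpinb9b in DMSO to -0.46 for Serpinb6a in 4OHT.

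In bulk RNA, a change in the share of the cells that express a gene cannot be told apart from a change in RNA per cell, so the summed levels of cell markers are given beside these results. Epithelial markers (8 of 8 in the tables) summed to 10490 to 11720 CPM in DMSO and 12510 to 13300 CPM in 4OHT at day 2, and to 6727 to 7343 and 8009 to 9196 CPM at day 4. The keratin gene Krt8 held the most of this sum and moved with it, at 5379 to 6193 CPM in DMSO and 6957 to 7436 CPM in 4OHT at day 2, and 2580 to 2973 and 3587 to 4440 CPM at day 4. The adhesion gene Epcam did not follow the sum, at 1031 to 1183 and 847.7 to 934 CPM at day 2 and 1024 to 1107 and 952 to 1032 CPM at day 4, and the groups of the microvillus gene Vil1 overlapped at day 2. The order of the group means of Serpinb5 was that of all 8 genes except Serpinb6b and Serpinb9. In group medians, as the epithelial sum did, squamous epithelial markers followed this order, though DMSO day 2 and 4OHT day 4 overlapped. With 9 of 9 in the day 2 table and 8 of 9 in the day 4 table, they summed to 68.7 to 83.8 CPM in DMSO and 330.3 to 437 CPM in 4OHT at day 2, and to 8.83 to 14.3 and 39.3 to 116 CPM at day 4. Krt4 (34.9 to 46.9 CPM in DMSO and 194 to 286 CPM in 4OHT at day 2) and Sprr1a carried most of this sum. The basal cell factor Trp63 stayed at 0.127 CPM or less in every library. Dsg3, of the same list, ranged lower in 4OHT at day 2, with overlap (0.352 to 0.645 CPM in DMSO and 0.184 to 0.382 CPM in 4OHT). Goblet markers (7 of 7) summed to 4452 to 5210 CPM in DMSO and 6991 to 9029 CPM in 4OHT at day 2, and to 3366 to 4633 and 6626 to 8649 CPM at day 4. Fcgbp held the most of this sum. The treatment groups of Tff3 and Spdef overlapped at day 2, and those of Muc2 at day 4. Paneth markers (6 of 6) summed to 1854 to 2407 CPM in DMSO and 1518 to 1679 CPM in 4OHT at day 2, and to 2413 to 2966 and 2155 to 2338 CPM at day 4. Among them, the treatment groups of Mmp7 and Ang4 overlapped on both days, those of Pla2g2a at day 2 and those of Itln1 at day 4. The part of these markers, and of those that follow, in the serpin differences was not tested.

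Immune cells are a known site of Serpinb1a, Serpinb6b and Serpinb9 expression. Immune markers, of which 4 of 8 were in each table, summed to 4.61 to 9.28 CPM over all libraries, mostly Itgam and Cd68. The leukocyte gene Ptprc stayed at 0.0912 CPM or less, and Cd8a, Nkg7 and Adgre1 had under 10 reads over the 8 libraries of each day. Neutrophil and mast cell markers, of which 6 of 8 were in the day 2 table and 5 of 8 in the day 4 table, summed to 38.8 to 41.4 CPM in DMSO and 70.9 to 78.5 CPM in 4OHT at day 2, and to 76.8 to 93.7 and 80.6 to 105 CPM at day 4. Within that list, Ly6g was higher in 4OHT (1.41 to 2.03 CPM in DMSO, 25.7 to 35.7 in 4OHT at day 2). The mast cell protease gene Mcpt2 was higher too (1.70 to 2.29 and 10.8 to 18.2 CPM). The stem cell factor receptor gene Kit held most of the sum in each DMSO group and went the other way at day 2. Kit measured 34.89 to 37.09 CPM in DMSO and 25.75 to 34.0 CPM in 4OHT at day 2, without overlap. At day 4 the Kit groups overlapped (76.07 to 93.33 and 64.72 to 92.09 CPM). The neutrophil genes S100a9 and Mpo stayed at 0.155 and 0.0319 CPM or less, and S100a8 and Cpa3 had under 10 reads. Stromal markers (2 of 6 in the tables) summed to at most 0.368 CPM and endothelial markers (1 of 3) to at most 0.749 CPM.

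Across the 16 libraries the log2 CPM profiles of 7 of the genes ran in parallel. Pearson's r, given as a description over libraries that share groups and day, was 0.99 between Serpinb1a and Serpinb6a, 0.99 between Serpinb1a and Serpinb5 and 0.98 between Serpinb5 and Serpinb6a. Pairs that include Serpinb6b, Serpinb6c, Serpinb9b or Serpinb1b lay between 0.60 and 0.94. Serpinb9 lay between -0.06 and 0.04 with every other member. Among 9388 genes with a mean log2 CPM of at least 3, those with the profile most like Serpinb1a were Sqrdl (r = 0.996), a mitochondrial sulfide oxidase, and Ethe1 (r = 0.993), which acts in the same sulfide pathway. The nearest profiles to Serpinb5 were F3, the tissue factor of coagulation (r = 0.998), and the calpain protease gene Capn2 (r = 0.997), to Serpinb6a the annexin gene Anxa2 (r = 0.994) and Prr13 (r = 0.993), and to Serpinb9b the calcium-binding S100a6 (r = 0.981) and the actin-severing gelsolin Gsn (r = 0.980). Syt16 and Vnn1 (each r = 0.936) came nearest to Serpinb6b, Ercc5 (0.958) and Rhbdf2 (0.956) to Serpinb6c, and Fbxw2 (0.947) and Ap3m1 (0.934) to Serpinb1b. No gene came close to Serpinb9, whose nearest were Snapin (r = 0.591) and Rrp1 (r = 0.588).

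All but Serpinb5 lie within 1.16 Mb of chromosome 13, from Serpinb1a to Serpinb6a. Of the 10 other genes tested in this interval and 500 kb to either side, 1 rose and 3 fell at day 2, and 1 rose and 1 fell at day 4. Slc22a23, an orphan solute carrier gene beyond the Serpinb6a end, rose on both days (log2 0.56 ± 0.05, edgeR adjusted p = 1.36e-05, and 0.46 ± 0.08, edgeR adjusted p = 0.00315). The falls were small or poorly counted. Bphl (log2 -0.24 ± 0.07), Psmg4 (-0.26 ± 0.08) and the predicted gene Gm17084 (-0.81 ± 0.28) fell at day 2 with edgeR adjusted p = 0.0260, 0.0263 and 0.0490, and the tubulin gene Tubb2a fell at day 4 (-0.35 ± 0.11, edgeR adjusted p = 0.0338). Each of these 4 calls rested on single libraries. Bphl was lost without 4OHT replicate 2 or 3 or DMSO replicate 2 (edgeR adjusted p up to 0.0698), and Psmg4 without replicate 1 or 2 of either group (up to 0.0731). Gm17084 was lost without 4OHT replicate 2, 3 or 4 or DMSO replicate 1, 2 or 3 (up to 0.133), and Tubb2a without 4OHT replicate 1 or 3 or DMSO replicate 2, 3 or 4 (up to 0.0902). With the replicate block at day 2, where the numbers do not pair the libraries, Psmg4 and Gm17084 did not pass (edgeR adjusted p = 0.0518 and 0.0763), leaving 1 fall. With the replicate block at day 4, Bphl and Psmg4 also fell at day 4, for 3 falls in all. Wrnip1, the nearest tested gene before Serpinb1a, did not pass the test on either day (log2 0.07 ± 0.04 and 0.01 ± 0.05, edgeR adjusted p = 0.219 and 0.920).

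**Figure D4:**
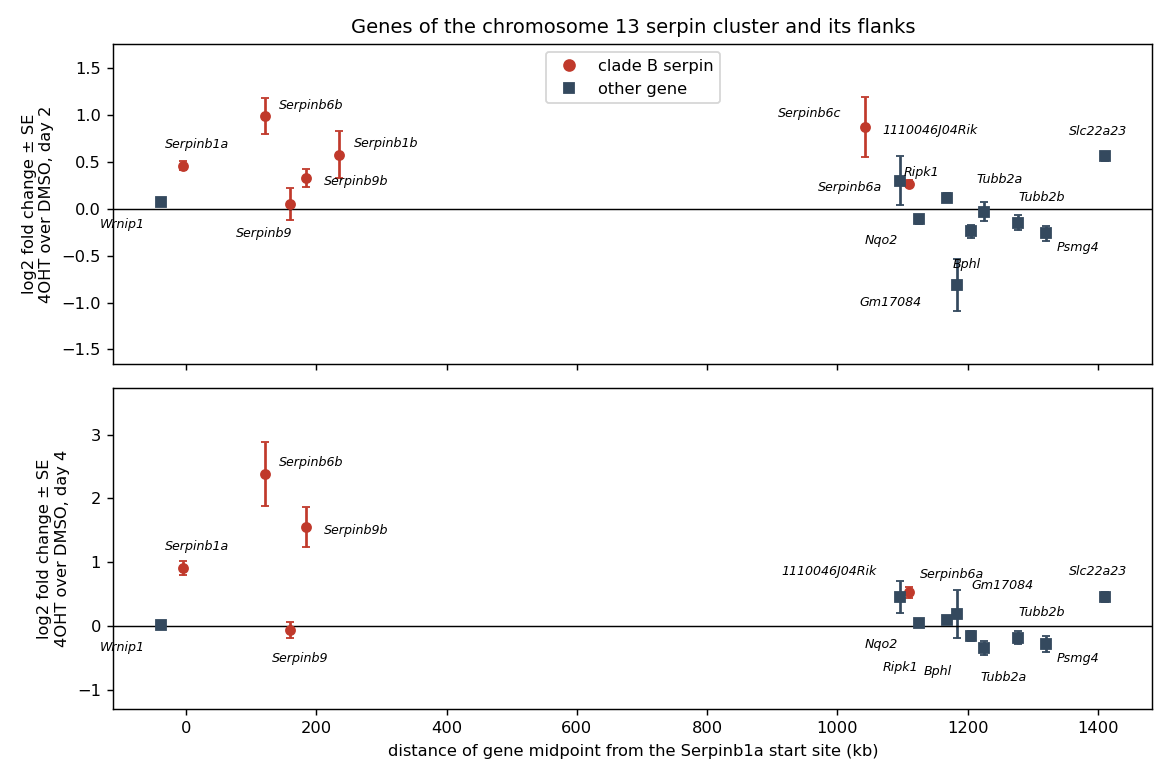
Log2 fold change of 4OHT over DMSO (± 1 SE, edgeR) at day 2 (top) and day 4 (bottom) against the distance of each gene's midpoint from the Serpinb1a start site, for clade B serpins (red circles) and the other tested genes (dark squares). Serpinb9, at log2 0.05 and -0.06, sits between Serpinb6b at 0.99 and 2.39 and Serpinb9b at 0.33 and 1.55.

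Promoters from RefSeq (GRCm38.p6), 250 bases before to 50 after a start site, were found for 7 of the 8 genes, all but Serpinb1a, with a pair of starts for Serpinb6a. Shown 5′ to 3′ on the plus strand, which is the strand of all 3 genes, are the 250 bases before the start of Serpinb5, which differed most between treatments among the abundant genes, and of the paralogues Serpinb9 and Serpinb9b, whose profiles differed. Capitals mark motif matches.
Serpinb5, chr1:106860925-106861174: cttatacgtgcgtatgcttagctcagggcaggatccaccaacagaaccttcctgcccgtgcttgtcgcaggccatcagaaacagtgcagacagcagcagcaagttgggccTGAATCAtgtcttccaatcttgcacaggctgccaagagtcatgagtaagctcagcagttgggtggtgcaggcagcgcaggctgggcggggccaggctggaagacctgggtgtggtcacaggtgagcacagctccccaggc
Serpinb9, chr13:33004291-33004540: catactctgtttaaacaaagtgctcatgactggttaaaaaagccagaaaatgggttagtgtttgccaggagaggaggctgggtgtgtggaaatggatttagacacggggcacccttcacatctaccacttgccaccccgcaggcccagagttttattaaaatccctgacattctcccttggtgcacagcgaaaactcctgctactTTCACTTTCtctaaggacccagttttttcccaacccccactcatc
Serpinb9b, chr13:33027164-33027413: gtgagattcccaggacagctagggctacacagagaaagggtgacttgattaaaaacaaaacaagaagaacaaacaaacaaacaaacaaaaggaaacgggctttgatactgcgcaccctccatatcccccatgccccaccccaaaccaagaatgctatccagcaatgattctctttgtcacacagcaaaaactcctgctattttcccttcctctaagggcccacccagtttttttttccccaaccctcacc
The motifs searched, on both strands, were AP-1 (TGANTCA), HNF4 (CAAAGTCCA), TEAD (ACATTCC) and the interferon response element (TTCNNTTTC). On both strands they occurred in 7.81%, 0.47%, 3.85% and 8.56% of all 32851 promoters of this length. The AP-1 pattern is loose, since it accepts any base (N) in the middle. The Serpinb5 promoter held a match to this pattern 140 bases before the start, TGAATCA, with A at the open base. Whether these letters form an AP-1 site was not tested. The Serpinb9 promoter held an interferon response match 45 bases before, TTCACTTTC. Serpinb6a held an interferon response match in each promoter, at 83 bases before the upstream start and at base 5 after the other. No HNF4 or TEAD match was in these windows, and the Serpinb1b, Serpinb6b, Serpinb6c and Serpinb9b windows held none of the motifs. Between the Serpinb9 and Serpinb9b promoters, 68.1% of 226 aligned bases were identical. A match describes letters and shows no binding.

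Target proteases and other inhibitors were read from gene lists grouped by function. A list of 13 genes held granzymes, neutrophil serine proteases and the perforin gene Prf1, among them classical targets of Serpinb1a and Serpinb9. Of this list only Gzmm passed the filter, at 0.575 ± 0.142 CPM (SD, n = 4) in the DMSO libraries and 0.619 ± 0.0470 CPM in the 4OHT libraries of day 2. Gzmm passed no treatment test (edgeR adjusted p = 0.689 and 0.497). Of 12 cathepsins, lysosomal proteases, 5 rose and 4 fell at day 2 and 3 rose and 1 fell at day 4, or 5 and 2 with the replicate block (median log2 0.09 and 0.23, against -0.00 and -0.01 over all genes). Ctse rose from 0.464 ± 0.0584 to 2.85 ± 0.314 CPM at day 2 (log2 2.62 ± 0.13, edgeR adjusted p = 8.57e-08) and by log2 3.10 ± 0.33 at day 4 (edgeR adjusted p = 0.000166). Ctsl, a lysosomal cysteine protease, rose by log2 0.76 ± 0.06 and 0.98 ± 0.19 (edgeR adjusted p = 3.69e-06 and 0.00407). Ctsc, which activates granule serine proteases, rose by log2 0.31 ± 0.04 at day 2 (edgeR adjusted p = 0.000105) and by 0.43 ± 0.13 at day 4 (edgeR adjusted p = 0.0315), and the day 4 call was lost without 4OHT replicate 3 or any 1 of the DMSO replicates (edgeR adjusted p up to 0.0862).

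Plasminogen activation is an extracellular serine protease cascade. Of 6 genes of it tested at day 2, 4 rose and 1 fell, and of 5 at day 4, 2 rose (median log2 1.04 and 1.10). Plau, the urokinase gene, rose from 1.16 ± 0.0938 to 5.76 ± 1.001 CPM at day 2 (log2 2.32 ± 0.13, edgeR adjusted p = 2.20e-07) and from 0.119 ± 0.0645 to 1.63 ± 0.905 CPM at day 4 (log2 3.78 ± 0.50, edgeR adjusted p = 0.000591). At day 4 Plau passed the filter only through its 4OHT level, so its place in the day 4 count supports nothing. Its receptor gene Plaur rose by log2 1.06 ± 0.10 and 1.56 ± 0.22 (edgeR adjusted p = 8.01e-06 and 0.000871). The tissue activator Plat rose at day 2 (log2 1.02 ± 0.12, edgeR adjusted p = 5.42e-05). At day 4 Plat did not pass (log2 1.10 ± 0.39, edgeR adjusted p = 0.0705), but did without 4OHT replicate 4 (0.52, edgeR adjusted p = 0.0435), without 4OHT replicate 2 (1.34, edgeR adjusted p = 0.0214) and with all 16 libraries in 1 fit (1.11, edgeR adjusted p = 0.0214).

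Few serpins of other clades were called. Of 8 tested on each day, 2 fell at day 2 and 2 fell at day 4 (median log2 0.11 and -0.04). Serpinf2, the plasmin inhibitor, fell from 2.48 ± 0.386 to 1.03 ± 0.225 CPM at day 2 (log2 -1.26 ± 0.16, edgeR adjusted p = 0.000103) and also at day 4 (-1.56 ± 0.14, edgeR adjusted p = 5.25e-05). Serpina1b, an antitrypsin gene, fell on both days (log2 -1.6 ± 0.28 and -1.83 ± 0.35, edgeR adjusted p = 0.00114 and 0.00384) from means of 0.226 and 0.215 CPM. It passed the filter only through its DMSO levels, so its place in these counts supports nothing.

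Among 11 epithelial trypsin-like proteases, 2 rose and 3 fell at day 2 and 6 rose and 2 fell at day 4 (median log2 -0.07 and 0.32). Prss12 fell (log2 -1.15 ± 0.07 and -1.23 ± 0.09, edgeR adjusted p = 2.76e-07 and 2.23e-05), while the membrane protease gene Tmprss2 rose by log2 0.44 ± 0.04 and 0.40 ± 0.06 (edgeR adjusted p = 1.22e-05 and 0.00119) and Prss22 by 1.62 ± 0.21 and 1.88 ± 0.40 (edgeR adjusted p = 0.000111 and 0.00660). Of the other protease inhibitors, 4 rose and 4 fell of 13 at day 2 and 3 rose and 2 fell of 11 at day 4, or 6 and 3 with the replicate block (median log2 -0.02 and 0.16). The metalloprotease inhibitor gene Timp2 rose by log2 1.43 ± 0.12 and 0.47 ± 0.08 (edgeR adjusted p = 3.25e-06 and 0.00237), and Timp3 fell (log2 -0.62 ± 0.16 and -1.35 ± 0.22, edgeR adjusted p = 0.00993 and 0.00158). Cstb, an intracellular inhibitor of cysteine cathepsins, rose by log2 0.40 ± 0.05 at day 2 (edgeR adjusted p = 6.90e-05) and 0.47 ± 0.14 at day 4 (edgeR adjusted p = 0.0333), the latter lost without 4OHT replicate 3 or DMSO replicate 1, 2 or 3 (edgeR adjusted p up to 0.0911).

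Of 11 caspases and cell death effectors, 4 rose and 3 fell at day 2 and 4 rose and 0 fell at day 4, or 7 and 0 with the replicate block (median log2 -0.00 and 0.26). Gsdmd, which forms pores in pyroptosis, rose from 136 ± 1.11 to 231 ± 6.36 CPM at day 2 (log2 0.76 ± 0.04, edgeR adjusted p = 8.57e-08) and from 88.2 ± 4.12 to 187 ± 24.4 CPM at day 4 (log2 1.09 ± 0.08, edgeR adjusted p = 3.02e-05). The necroptosis genes Ripk3 and Mlkl rose by log2 0.36 ± 0.05 and 0.33 ± 0.05 at day 2 (edgeR adjusted p = 0.000133 and 0.000478) and by 0.46 ± 0.08 and 0.53 ± 0.10 at day 4 (edgeR adjusted p = 0.00217 and 0.00399). In DMSO these 3 genes also fell from day 2 to day 4, as 6 of the serpins did (log2 -0.61 ± 0.05, -0.78 ± 0.06 and -0.74 ± 0.06, edgeR adjusted p = 3.79e-07, 2.72e-07 and 8.92e-07).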

How the data were processed

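Per the labels' protocols, 250 ng of total RNA went into each of the 16 organoid libraries, made with poly(A) selection and a directional kit. STAR 2.4.0f1, bcl2fastq 1.8.4 and the build GRCm38 are named per the submitters' processing notes, while for the counter, its annotation and its use of strand the entry is: not given in the sources used here. The authors deposited read counts per gene, 1 table per day with 20790 and 20658 genes, each gene with at least 10 reads over 8 libraries. Their normalized values and statistics were not used.

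The 8 genes and all gene, marker and motif lists were chosen with earlier results of these data known. Groups and replicate numbers follow the labels. In R 4.3.3, edgeR 4.0.16 (with limma 3.58.1) filtered genes by filterByExpr, scaled libraries by TMM and ran its robust quasi-likelihood test, with Benjamini-Hochberg adjustment over all genes tested and calls below 0.05. Each fit used the 8 libraries compared. CPM were scaled over all 16. Itgam, listed under 2 IDs at day 4, was read from the ID with more reads. Without molecular identifiers, reads are not independent molecules. Counts of all 24 pairs of libraries within groups differed beyond counting noise. The fits were tested on simulated data.

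Named were the 8 genes, Hnf4a, other clade B serpins in a table, up to 3 genes per list with the smallest treatment p, called neighbours, and the 2 most alike profiles per gene (log2 CPM, prior count 2). The overlapping partners Nqo2 and Ripk1, the neighbour Wrnip1 and single markers were named after their values were seen. Some genes of the lists are counted but not reported here by name. Replicate numbers pair the libraries at day 4, where deviations of same-numbered libraries correlated at 0.63 to 0.81. This comes from the data, not the labels. At day 2 they correlated at -0.11 to 0.47, and between days at 0.07 to 0.19 in DMSO and -0.23 to 0.39 in 4OHT. Alternatives were DESeq2 1.42.0, its size factors in edgeR, no filter, at least 1 CPM in 4 libraries, the replicate block, all 16 libraries in 1 fit, and each library left out.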

Additional observations from a re-analysis of the deposited data

How the results depend on the processing

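No clade B serpin call reversed in direction under the 14 alternatives tried per comparison, some of which left a rare gene untested. Keeping only genes that reached 1 CPM in 4 libraries, which tested fewer genes, gave 3 clade B serpins called higher at day 4 instead of 5. With the replicate block at day 4, 3651 of all genes were called higher and 3565 lower, against 2191 and 1776 without it, and the clade B count stayed at 5. The replicate block also brought Serpinb6b in 4OHT between days past the threshold (log2 -0.62, edgeR adjusted p = 0.0485), where the numbers do not pair the libraries, and changed no other call of the 8 genes. The counts of clade B serpins between treatments describe genes chosen on these contrasts and are no test of them. With each library left out in turn, 4 to 6 of the genes were called higher at day 2 and 5 at day 4, and 6 were called lower between days in DMSO and 5 to 7 in 4OHT. Over all genes, these refits called 2046 to 2604 higher and 1660 to 2547 lower at day 2, and 1704 to 2304 higher and 1253 to 1737 lower at day 4. The same refits moved the cathepsins that fell at day 2 to 2 to 5 (4 with all libraries) and those that rose at day 4 to 2 to 5 (3), and gave the same ranges for the other protease inhibitors (4 and 3). Depth limits Serpinb1b and Serpinb6c, which had at most 9 reads in any library of day 4.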
